A study of Mus musculus with 12 samples.

Results

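The genes described here are 8 nuclear genes whose proteins work in mitochondrial membranes: the translocase genes Timm13, Timm17a and Tomm40l, the carrier genes Slc25a3 and Slc25a16, the calcium channel gene Mcu, the cristae factor gene Chchd10 and the fission factor gene Mff. They were taken by matching the Entrez Gene identifiers of the count table to these symbols, which found 8 of 8 among 2398 genes. The study sequenced RNA of oligodendrocytes that make myelin, sorted from mouse brain as GFP-positive cells that excluded the dead-cell dye propidium iodide. GFP came from the Ndrg1-EGFP reporter, which all animals carried. All were C57BL/6 mice homozygous for a floxed allele of Lmna, which encodes the A-type lamins of the nuclear lamina, and their age is given as postnatal day 60 in one field and as 8 weeks in another. WT stands for Cnp+/+;Lmnafl/fl, with both floxed Lmna alleles and no Cre. KO stands for CnpCre/+;Lmnafl/fl, in which Cre is made from the locus of Cnp, a gene of the oligodendrocyte lineage, so that KO and WT differ in Cre and in a Cnp allele as well as in Lmna. Each genotype had 3 biological replicates, each with 2 libraries.

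Most mitochondrial proteins are encoded in the nucleus, made in the cytosol and carried across the outer membrane by the TOM complex and into or across the inner membrane by TIM complexes. Carriers of the SLC25 family then exchange metabolites and ions across the inner membrane, and a uniporter admits calcium into the matrix. Division of mitochondria and the folding of the inner membrane into cristae set the shape in which these transporters work. Oligodendrocytes extend long processes and build myelin lipids from precursors that pass through mitochondria.

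The table analysed here covers chromosomes 1 and 10, the latter up to 111.3 Mb, and held between 3694551 and 6093336 counts per replicate. These totals are part of each library and not its depth. Lmna and Cnp are not analysed here, so recombination of Lmna was not checked. Of 22 markers of myelinating oligodendrocytes, 2 were in the table, Adamts4 and Nfasc. Their summed level lay between 10317 and 11898 CPM in WT and between 14778 and 17091 CPM in KO. Adamts4 alone lay between 6114 and 7089 CPM in WT and between 8941 and 9693 CPM in KO. Nfasc lay between 4204 and 5360 CPM in WT and between 5837 and 7399 CPM in KO. Whether the sum reflects cell content or these genes, and its part in the results below, was not tested. CPM is the count of a gene per 1000000 counts in the table, scaled by normalization factors. The 2 libraries of a replicate agreed nearly within sampling noise, with a chi-square of 1.00 to 1.06 per degree of freedom, and were summed to 1 sample. In the 8 genes the 2 libraries of a replicate differed by at most 14.8%, for Mcu in WT replicate 1.

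None of the 8 genes passed the test between genotypes, and 7 of the 8 had replicates that overlapped. Replicates did not overlap in 8.49% of all genes tested. The adjusted p of the 8 genes lay between 0.994 and 0.995 (edgeR, quasi-likelihood test, Benjamini-Hochberg adjustment over 1484 genes). Of all genes tested, 0% were called at an adjusted p under 0.05. DESeq2 called 0.473% of its genes and 0 of the 8. At an unadjusted p under 0.05, 0 of the 8 genes passed, against 3.98% of all genes. All 8 passed the filter on low counts. Their median log2 fold change, KO over WT, was 0.0056, beside -0.0064 over all genes tested. For 7 of the 8 genes both ends of the 95% interval were less than 1 log2 unit from 0, which held for 63.6% of all genes tested. The exception was Chchd10. In bulk RNA a lower share of cells using a gene and less of its RNA per cell cannot be told apart.

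**Figure D1:**
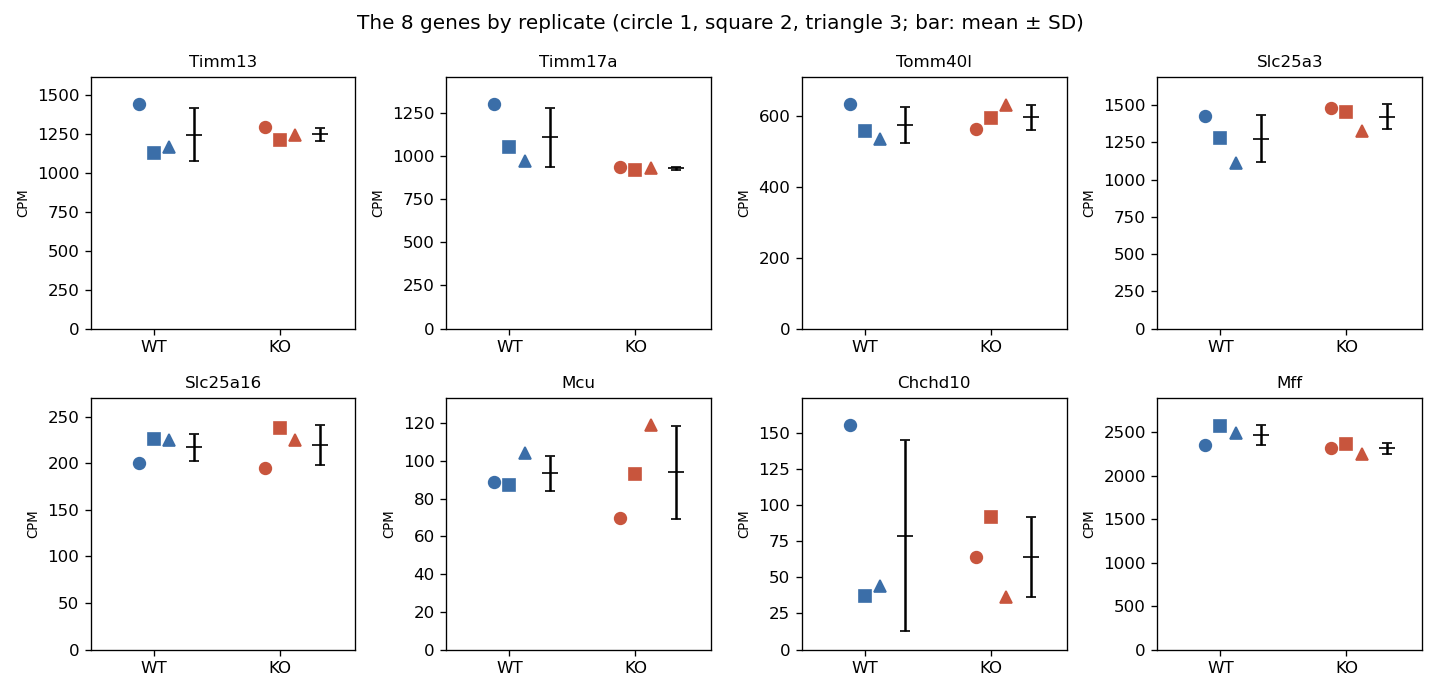
Level of each of the 8 genes in CPM (vertical axes, from 0) for the 3 WT (blue) and 3 KO (red) replicates, with the mean and SD beside each group. Timm17a is the one gene in which every KO replicate lies below every WT replicate, as in 4.04% of all genes tested. Chchd10 has a single high WT value of 155 CPM.

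Of the translocase genes only Timm17a had replicates that did not overlap, as 8.49% of all genes tested did. Timm17a encodes a subunit of the inner-membrane TIM23 complex, which takes in proteins with a presequence. It is Entrez gene 21854, on chromosome 1 from 135301535 to 135313737 in mm10. Timm17a stood at 1299, 1049 and 971 CPM in WT replicates 1, 2 and 3, and at 937, 920.1 and 928 CPM in KO replicates 1, 2 and 3. Every KO value was below every WT value, and the WT values were far more spread than the KO values. As mean and SD over n = 3 replicates, WT had 1106 ± 171 CPM and KO 929 ± 8.60 CPM. KO over WT, the log2 fold change was -0.25 ± 0.13 (SE), with a 95% interval from -0.54 to 0.034, and the adjusted p was 0.994 in edgeR's test. Replicates without overlap were found in 1 of the 8 genes and in 8.49% of all genes tested. They were lower in KO in this 1 gene, against 4.04% of all genes, and higher in KO in 0 of the 8, against 4.45%. Leaving out WT replicate 1 brought the log2 fold change to -0.12. The SD of the KO replicates was 0.927% of their mean, under the 1.74% that counting error alone gives at the lowest KO count of 3292.

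Timm13 encodes a small chaperone of the intermembrane space that guides membrane proteins to the inner membrane. Timm13, Entrez gene 30055, lies on chromosome 10 from 80899450 to 80900969. Its exons share 43 bases with those of Tmprss9 on the opposite strand, which had between 1 and 13 counts per replicate. Timm13 stood at 1442, 1128 and 1167 CPM in the WT replicates and at 1293, 1211 and 1242 CPM in the KO replicates. The KO values lay within the WT range, between WT replicate 1 and the other WT replicates. KO over WT, Timm13 had a log2 fold change of 0.0035 ± 0.12 (SE), and its 95% interval, from -0.27 to 0.28, left room for changes between 0.830 and 1.21 times the WT level. Without WT replicate 1 the value was 0.12, and without WT replicate 2 it was -0.053.

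Tomm40l encodes a relative of Tomm40, the channel of the outer-membrane TOM complex. Its Entrez identifier is 641376 and it lies on chromosome 1 from 171217802 to 171222514. Tomm40l stood at 635, 557 and 536 CPM in WT and at 563, 597 and 632 CPM in KO, with overlapping ranges. For Tomm40l the log2 fold change was 0.052 ± 0.11 (SE), with a 95% interval from -0.21 to 0.31. Its exons share 3304 bases with those of Nr1i3, a nuclear receptor gene on the opposite strand. No source used here says whether reads were counted by strand. Reads of the shared bases may have been left out or counted for Tomm40l. Almost none were counted for Nr1i3, which had 0 counts in 5 of the 6 replicates and 7 counts in KO replicate 1.

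In the 2 carrier genes the replicates of the genotypes overlapped. Slc25a3 encodes the carrier that brings phosphate into the matrix for ATP synthesis. This gene, Entrez identifier 18674, lies on chromosome 10 from 91116574 to 91124046. Slc25a3 stood at 1430.2, 1282 and 1114 CPM in the WT replicates and at 1484, 1456 and 1325 CPM in the KO replicates. WT replicate 1 lay inside the KO range, and WT replicates 2 and 3 lay below all KO values. KO over WT, the log2 fold change was 0.16 ± 0.12 (SE), with a 95% interval from -0.12 to 0.43 and an adjusted p of 0.994 in edgeR's test. It moved between 0.076, without WT replicate 3, and 0.24, without WT replicate 1. Slc25a3 makes isoforms from alternative exons, which a count per gene does not separate.

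Slc25a16 encodes a carrier linked to coenzyme A in mitochondria. Entrez gene 73132, it lies on chromosome 10 from 62920632 to 62946494. Slc25a16 stood at 201, 225 and 225 CPM in WT and at 195, 238 and 225 CPM in KO. The groups overlapped almost fully. The log2 fold change was 0.015 ± 0.13 (SE), with a 95% interval from -0.29 to 0.32, and it lay between -0.043 and 0.088 when each replicate was left out in turn.

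Mcu had the lowest mean level of the 8 genes per transcript length. It encodes the pore of the uniporter through which calcium enters the matrix. The gene, Entrez identifier 215999, lies on chromosome 10 from 59446984 to 59617409. Mcu stood at 88.9, 87.4 and 104 CPM in the WT replicates and at 69.8, 93.2 and 119 CPM in the KO replicates. The lowest and the highest value were both KO. As mean and SD over n = 3 replicates, WT had 93.5 ± 9.31 CPM and KO 94.0 ± 24.6 CPM. For Mcu the log2 fold change was 0.0078 ± 0.23 (SE), with a 95% interval from -0.52 to 0.53, which covers 0.699 to 1.45 times the WT level. Without KO replicate 3 it was -0.20, and without KO replicate 1 it was 0.18.

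Chchd10 differed among replicates far more than the other 7 genes. It encodes a small protein of the intermembrane space that associates with cristae and in which mutations cause motor neuron disease and frontotemporal dementia. It is Entrez gene 103172, on chromosome 10 from 75933130 to 75937750. Chchd10 stood at 155, 37.3 and 44.1 CPM in the WT replicates and at 64.3, 91.5 and 36.4 CPM in the KO replicates. WT replicate 1 was highest, KO replicate 2 was next, and KO replicate 3 was lowest. As mean and SD over n = 3 replicates, WT had 78.9 ± 66.3 CPM and KO 64.1 ± 27.5 CPM, and the log2 fold change was -0.30 ± 0.60 (SE), with a 95% interval from -1.71 to 1.11. Without WT replicate 1 the log2 fold change was 0.65, so the direction rested on that replicate. It was -0.089 in limma-voom and -0.099 with the replicate number as a block. Of the shared exon bases with genes of the opposite strand, 155 were with Mmp11, which stood between 3.60 and 13.4 CPM in the 6 replicates, and 25 with Gm867.

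Markers of other cell types varied among the same replicates. Kcnj13, the one gene in the table from a list of 6 choroid plexus and ependyma markers, was highest in WT replicate 1, at 131 CPM. The remaining WT replicates had 4.97 and 8.46 CPM, and KO had between 1.58 and 16.2 CPM, with KO replicate 2 lowest. The sum of 4 of 18 microglia and macrophage markers lay between 91.6 and 165 CPM in WT, with WT replicate 1 highest. In KO it lay between 88.3 and 372 CPM, with KO replicate 2 highest. KO replicate 1, at 211 CPM, was also above WT replicate 1. Ptprc stood at 65.5 CPM in KO replicate 1 and 24.1 CPM in WT replicate 1, and Fcer1g at 68.1 and 61.4 CPM. Fcgr3, at 51.3 and 53.2 CPM, and Fcgr2b, at 25.9 and 26.0 CPM, were not higher in KO replicate 1. The sum of 4 of 13 astrocyte markers lay between 3392 and 6217 CPM in WT, with WT replicate 1 highest. In KO this sum lay between 4619 and 7428 CPM, with KO replicate 2 highest. Most of it came from S100b, which oligodendrocytes also express. Vascular and fibroblast markers, 5 of 18, summed to between 83.5 and 475 CPM in WT and between 250.3 and 639 CPM in KO. Here WT replicate 2 and KO replicate 1 were highest in their genotypes. Rgs5 and Lum of that list were at 0 in at least 1 replicate. Neuronal markers, 2 of 13, summed to between 7.03 and 247 CPM in WT and between 10.5 and 46.8 CPM in KO. For these, WT replicate 3 and KO replicate 2 were highest in their genotypes. The progenitor marker Tnr, 1 of 11, lay between 0.497 and 25.2 CPM over all replicates, with the same replicates highest in each genotype. The part of these cells in the level of Chchd10 or of the other 7 genes was not tested.

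Mff was the most abundant and the steadiest of the 8 genes. It encodes an outer-membrane receptor for the fission enzyme Dnm1l, on mitochondria and on peroxisomes. Mff, Entrez gene 75734, lies on chromosome 1 from 82724890 to 82752390. Its exons share 195 bases with those of C430014B12Rik, a gene of the opposite strand that is not in the table. Mff stood at 2348, 2570.3 and 2488 CPM in the WT replicates and at 2318, 2369 and 2252 CPM in the KO replicates. WT replicate 1 lay within the KO range, and WT replicates 2 and 3 lay above all KO values. The log2 fold change was -0.094 ± 0.095 (SE), and the 95% interval, from -0.31 to 0.12, covers 0.807 to 1.09 times the WT level. It was the narrowest interval of the 8 genes, and the value lay between -0.13 and -0.055 when each replicate was left out.

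**Figure D2:**
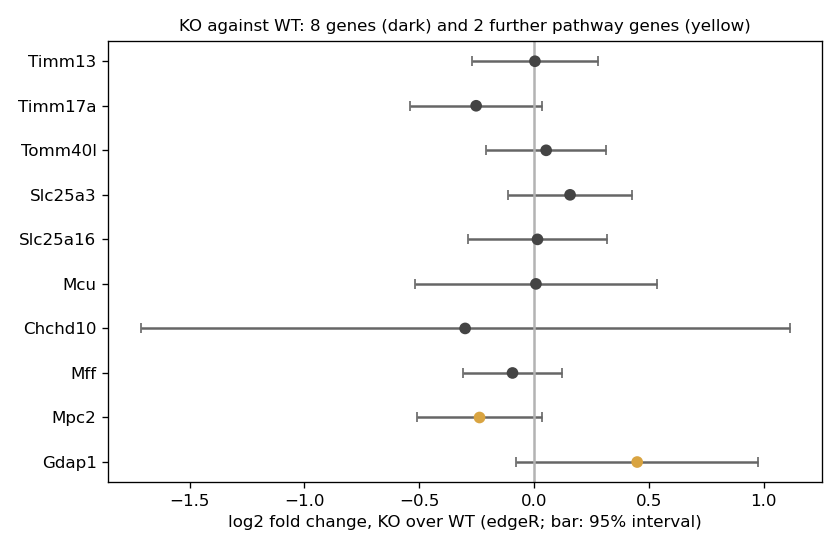
Log2 fold change, KO over WT, from edgeR (horizontal axis) with its 95% interval for the 8 genes (dark) and for Mpc2 and Gdap1 (yellow). All 10 intervals include 0, and that of Chchd10 is the widest, from -1.71 to 1.11.

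Lists of the same pathways, written out for the whole genome, had few further genes on the chromosomes analysed. Of 175 genes reported here, 11 were in the table and were tested, with 7 log2 fold changes above 0, 4 below 0 and 0 called, and a median of 0.0078 beside -0.0064 for all genes tested. The outer-membrane import list had 1 of 16 genes, Tomm40l, and the inner-membrane import list 2 of 33, Timm13 and Timm17a. Among carriers and inner-membrane transporters, 3 of 65 were tested, with 2 above 0, 1 below 0 and a median of 0.015. In fission, fusion and cristae organisation, 4 of 43 were tested, with Gdap1 and Mtfr2 above 0, Mff and Chchd10 below 0 and a median of 0.12. Mtfr2, a fission regulator, had between 0 and 19 counts per replicate, too few to compare, and without it the median of this list was -0.094, and that of the 10 remaining genes over all lists was 0.0056. That omission was chosen after the values were seen. The lists of import, carriers, calcium and shape thus hold the 8 genes and 3 others, Mpc2, Gdap1 and Mtfr2.

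Mpc2, a subunit of the mitochondrial pyruvate carrier, stood at 1439, 1113 and 1224 CPM in WT and at 1015, 1118 and 1069.8 CPM in KO. Only WT replicate 2 and KO replicate 2 crossed. The log2 fold change of Mpc2 was -0.24 ± 0.12 (SE), with a 95% interval from -0.51 to 0.036 and an adjusted p of 0.994 in edgeR's test, and it was -0.13 without WT replicate 1. Gdap1 encodes an outer-membrane protein of mitochondrial fission in which mutations cause Charcot-Marie-Tooth neuropathy. Gdap1 stood at 146, 163 and 109 CPM in WT and at 228, 135 and 208 CPM in KO. KO replicates 1 and 3 lay above all WT values and KO replicate 2 lay among them. KO over WT, the log2 fold change of Gdap1 was 0.45 ± 0.23 (SE), with a 95% interval from -0.079 to 0.98 and an adjusted p of 0.994. It was 0.30 without KO replicate 1 and 0.65 without KO replicate 2.

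**Figure D3:**
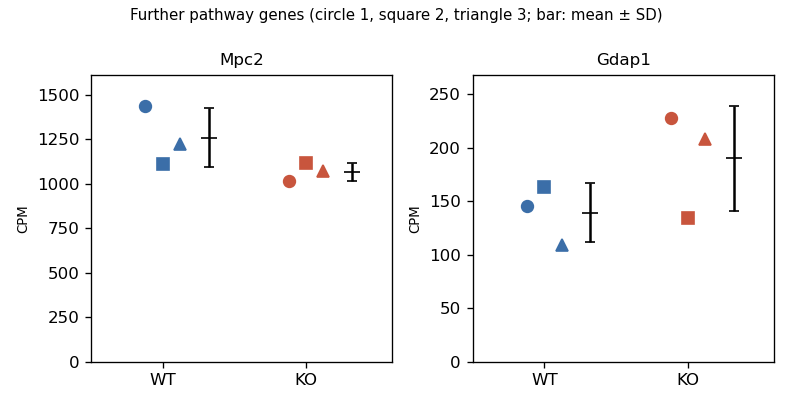
Levels of Mpc2 and Gdap1 in CPM (vertical axes, from 0) for 3 WT (blue) and 3 KO (red) replicates, with mean and SD. KO replicate 2 of Gdap1, at 135 CPM, lies among the WT values, and the other KO values lie above them.

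Levels of different genes were compared per kilobase of the principal coding transcript in GENCODE M21, taking the longest where there are several. In WT the order was Mff at 1303 ± 59.3, Timm13 at 1017 ± 140 and Slc25a3 at 791 ± 98.0 CPM per kilobase (SD, n = 3). Timm17a at 152 ± 23.5 and Tomm40l at 122 ± 11.0 CPM per kilobase followed, and then Slc25a16 at 69.0 ± 4.56, Chchd10 at 53.0 ± 44.6 and Mcu at 32.6 ± 3.24 CPM per kilobase. With these transcripts the 3 highest genes were several times above the other 5, and the order was the same in KO. Timm13 was above Slc25a3 in each of the 6 replicates. Timm17a and Tomm40l did not differ beyond their spread in KO, at 128 ± 1.18 and 127 ± 7.37 CPM per kilobase, and with the shorter principal transcript of Tomm40l that gene came first, at 205 in WT and 212 in KO. With the shorter principal transcript of Chchd10 that gene stood at 84.0 in WT, above Slc25a16, and at 68.2 in KO, below Slc25a16 at 69.7 CPM per kilobase. The place of Timm17a rests on a principal transcript of 7280 bases. In CPM it stood at 1106 in WT, beside 1245.5 for Timm13 and 1276 for Slc25a3. The level of Tomm40l is too low if reads of the bases shared with Nr1i3 were left out. Chchd10 ranged from 24.5 to 104 CPM per kilobase over the 6 replicates and overlapped both Slc25a16 and Mcu.

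The 8 genes did not move as one across replicates. WT replicate 1 was the highest of the 6 replicates in 4 genes, Timm13, Timm17a, Tomm40l and Chchd10, and so it was in 21.2% of all genes tested. It was next to lowest for Slc25a16. KO replicate 1 was lowest for Slc25a16 and Mcu and highest for Slc25a3. Summed over the 8 genes the level lay between 6649.5 CPM, in WT replicate 3, and 7599 CPM, in WT replicate 1, and the KO replicates lay between 6759 and 6975 CPM. The SD in CPM was smaller in KO than in WT for 6 of the 8 genes, and for 59.6% of all genes tested. The exceptions were Slc25a16 and Mcu. As a percentage of the mean, averaged over the genotypes, the SD ran from 3.54% for Mff to 63.5% for Chchd10, with a median of 16.8% over all genes tested.

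**Figure D4:**
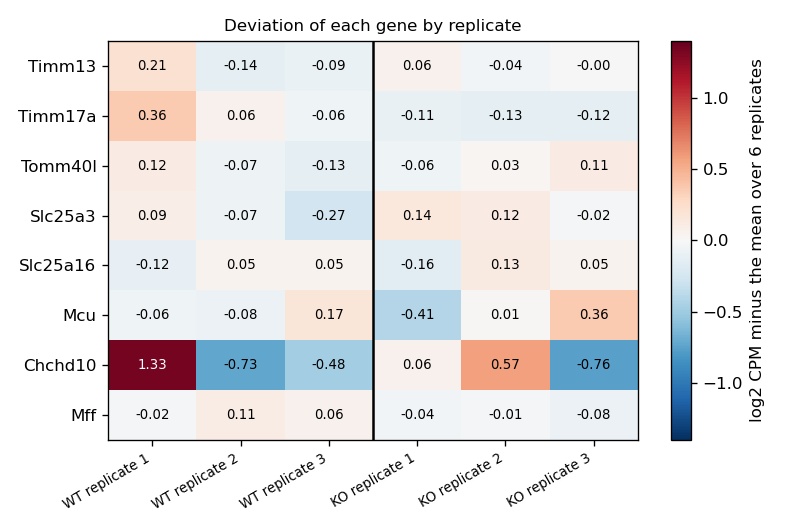
Log2 CPM of each of the 8 genes minus its mean over the 6 replicates (colour and printed value), by replicate, with WT left and KO right of the line. Chchd10 runs from -0.76 to 1.33, while Mff stays between -0.085 and 0.11.

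Likeness of 2 genes was measured as the mean absolute difference of their centred log2 CPM over the 6 replicates. Among the 8 genes the closest pair was Timm13 and Tomm40l, at 0.082, and then Slc25a16 and Mff, at 0.090. Every pair with Chchd10 was at 0.565 or more. Over all genes tested with at least 50 CPM on average, 959 besides the gene itself, the one most like Timm17a was Pex3, at 0.043, and the one most like Tomm40l was Pex19, at 0.027. Both encode factors of peroxisome membrane assembly. Pex3 stood at 443, 354 and 329 CPM in the WT replicates and at 323, 339 and 334 CPM in the KO replicates. Like Timm17a it was highest in WT replicate 1, but its ranges overlapped. The gene most like Mff was Ilkap, a protein phosphatase gene, at 0.024, that most like Timm13 was Ascc1, at 0.027, and that most like Slc25a3 was Ralb, a small GTPase gene, at 0.041. For Slc25a16 it was Prdm4, at 0.042, and for Mcu it was Cdk18, a kinase gene, at 0.068. The median over the 959 genes lay between 0.15, for Mff, and 0.68, for Chchd10. These are descriptions of 6 replicates, with no test.

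Chchd10 had no close match. Its nearest gene was Wdfy1, a gene of phosphoinositide binding on endosomes, at 0.36. Wdfy1 stood at 1069, 223 and 261 CPM in the WT replicates and at 248, 948 and 314 CPM in the KO replicates. WT replicate 1 and KO replicate 2 were the highest for both genes, and the other 4 replicates of Wdfy1 lay together between 223 and 314 CPM. KO replicate 1, the third highest for Chchd10, was among those low values for Wdfy1.

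**Figure D5:**
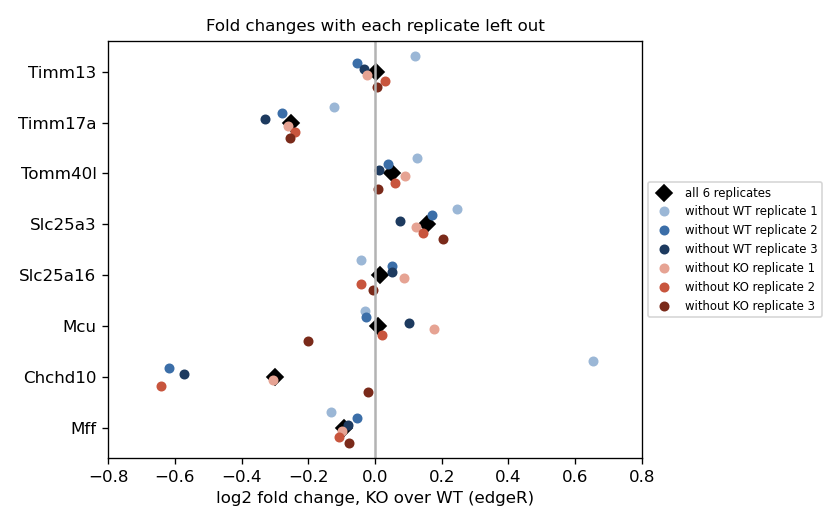
Log2 fold change, KO over WT, of each of the 8 genes from edgeR (horizontal axis) with all 6 replicates (black diamond) and with each replicate left out (coloured points). Chchd10 turns from -0.30 to 0.65 without WT replicate 1, and Timm17a stays below 0 in all 6 fits, between -0.33 and -0.12.

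The 8 genes are spread over the analysed chromosomes, 3 on chromosome 1 and 5 on chromosome 10. RefSeq promoter windows of GRCm38.p6 were found for 7 of the 8 genes. Their GC content ran from 49.0% for Mff to 65.7% for Slc25a3, with a median of 60.7%, beside 52.7% over the windows of 27025 genes. TATAAA, searched on both strands, was in the window of 1 of the 7 genes, Timm13, and in 14.2% of all windows.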

How the data were processed

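The authors deposited raw read counts per gene and library. The build was mm10, and reads were aligned and counted with tools that include HISAT2 and featureCounts, per the submitters' processing notes, which also name SAMtools 1.4.1, DESeq2 1.38.1, CASAVA 1.8.2, fastp and FastQC. Annotation, strand and multi-mapping settings: not given in the sources used here. One line of the table that stopped early was left out. Symbols and coordinates come from RefSeq for GRCm38 (mm10), which matched 2226 of 2398 identifiers; transcript lengths and overlaps come from GENCODE M21. Symbols were matched exactly. No count was rescaled before the test. A planned result and the gene it needs are not reported here.

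The 2 libraries of each replicate were summed. The comparison of KO and WT used edgeR 4.0.16 (R 4.3.3): filterByExpr, TMM factors between 0.951 and 1.05, glmQLFit with robust estimation, and p adjusted by Benjamini-Hochberg over 1484 genes with a threshold of 0.05. SE was obtained from the fold change and the F statistic. The fits were run on counts simulated with edgeR's own dispersions, in 5 simulations with 200 changed genes each. The check covered large changes and unchanged genes. Changes as small as those fitted for the 8 genes were not simulated, so the check does not bear on them. DESeq2 1.42.0 and limma 3.58.1 were alternatives, besides other size factors, no filter, a replicate block, single libraries and each replicate left out. Nothing in the labels says that the replicates are separate animals rather than pools. The genes and lists were chosen with earlier results of these data known. The genes named besides the 8 are other tested genes of the pathway lists, markers of other cell types, overlapping genes, and the gene most like each of the 8. The statements on which replicates are high, on overlapping genes and on promoter windows were chosen after the values were seen.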

Additional observations from a re-analysis of the deposited data

How the results depend on the processing

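The log2 fold changes of Timm17a, Tomm40l, Slc25a3 and Mff, and of Mpc2 and Gdap1, kept their sign in all 14 alternatives. None of the 8 genes was called in any. The alternatives reuse the same replicates, so a kept sign is not independent support. Tomm40l came near 0, at 0.0077 without KO replicate 3 and 0.012 without WT replicate 3. DESeq2 called 6 genes higher and 1 lower in KO where edgeR called 0 and 0, and in the other 13 alternatives the counts were 0 and 0, with 34 to 86 genes at an unadjusted p under 0.05, against 59 in edgeR with all replicates. The cause was not tested.

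Without size factors the sign changed for Timm13 (-0.026), Slc25a16 (-0.0081) and Mcu (-0.018), and the median of all genes moved from -0.0064 to -0.032; 2 of the 8 genes were then above 0, instead of 5. With the first library alone Timm13 was at -0.0091, and with the second alone Mcu was at -0.069. With each replicate left out the values ran from -0.053 to 0.12 for Timm13, from -0.043 to 0.088 for Slc25a16, from -0.20 to 0.18 for Mcu and from -0.64 to 0.65 for Chchd10. The intervals of these genes include 0. The cause of the changes was not tested.

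Across genes, deviations from the genotype means correlated at -0.0032, -0.30 and 0.14 between replicates of the same number, so the numbers are not taken to pair the samples. The fit with the replicate block called 0 genes in either direction (49 had an unadjusted p under 0.05), and gave -0.020 for Mcu and -0.099 for Chchd10. The value of Chchd10 in limma-voom was -0.089, against -0.30 in edgeR. Without Mtfr2, left out after the data were seen for its few counts, the median of the fission, fusion and cristae list moved from 0.12 to -0.094. The spread between replicates was several times the counting error for Chchd10 in both genotypes and for Mcu in KO. It was not confined to these genes. In WT the SD was 13.8% of the mean for Timm13, 15.5% for Timm17a and 12.4% for Slc25a3. Counting error was computed only at the lowest KO count, not at WT counts, and was 1.48%, 1.74% and 1.39% for the same genes. In KO the SD of Timm17a was below its counting error.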
